A study of Mus musculus with 8 samples.

Results

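The first part of the dark phase was examined as the step from zeitgeber time (ZT) 12 to ZT18, that is, from lights off, when mice become active, to the middle of the night. RNA sequencing of colonic crypts was used for this, and the step rests on the 4 libraries labelled ZT12 and ZT18, 2 at each time, out of 8 libraries collected at ZT0, ZT6, ZT12 and ZT18. All genes with a mean of at least 10 normalised counts over the 8 libraries were taken, which gave 13503 of 14247 genes; a normalised count is the number of reads of a gene divided by 1 size factor per library. All groups were wild-type mice with no treatment named, and the labels set them apart by the time of collection alone. The mice of the study were on a C57BL/6 background, were aged 2 to 4 months and were kept under 12 h of light and 12 h of dark with food at all times. The crypts had been loosened from the large intestine with EDTA and scraped off, so cells of the layers below could come along. The labels do not state whether the libraries of a time point came from separate animals, and a legend of the study names more mice per time point than the libraries labelled here, so the p-values below measure the spread between these libraries, which may be technical.

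The mammalian clock is a feedback loop in which BMAL1 (encoded by Arntl) with CLOCK or NPAS2 switches on the Per, Cry, Nr1d and Dbp genes through E-box sequences. PER and CRY proteins then block BMAL1, while the REV-ERB receptors (Nr1d1 and Nr1d2) and the ROR receptors compete at other elements to lower or raise Arntl, Npas2, Cry1 and Nfil3. DBP, TEF and HLF activate D-box genes, and NFIL3 represses them. In the gut epithelium this clock is known for its links to feeding, cell division, the barrier and the response to microbes.

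Replicates 1 and 2 held 17303464 and 14722342 reads at ZT12, and those of ZT18 held 25159440 and 21047784 reads. The 4 libraries stood apart in several ways. ZT12 replicate 1 was rich in smooth muscle and fibroblast transcripts. ZT12 replicate 2 had 1299 normalised counts of Pbsn, a prostate secretory protein gene that was at 0 in all other libraries, and ZT18 replicate 1 carried milk protein transcripts; Pbsn was picked after its values were seen. Mitochondrial genes took 6.68% and 7.85% of the reads at ZT12 but 22.2% and 9.80% at ZT18. Across genes, log2 values correlated with r = 0.950 between the ZT12 libraries and 0.922 between the ZT18 libraries, against 0.895 to 0.951 between a ZT12 and a ZT18 library, so the libraries of a time point were not always nearest to each other. The epithelial label held in all 4: each of 12 epithelial markers was present, and their summed level lay between 301872 and 405707 normalised counts.

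Over this step, 4 genes passed the test and all 4 fell: Dbp, Nr1d1, Pecam1 and the long noncoding RNA Gm42047. They were called by limma on log2(normalised count + 1) at a Benjamini-Hochberg adjusted p under 0.05, which is 0.0296% of the genes tested. No gene rose by that rule, and the smallest limma adjusted p among the higher genes was 0.0746. At an unadjusted p under 0.05 there were 1219 genes (9.03%), 583 of them higher (4.32%) and 636 lower (4.71%). The edgeR quasi-likelihood test on the recovered reads called 1 gene, which was lower, whereas DESeq2 called 50 higher genes (0.37%) and 51 lower genes (0.378%). In 36.4% of the genes the libraries of the 2 time points did not overlap, with 17.8% of all genes higher and 18.7% lower at ZT18. The calls rested on few libraries: limma called 0 genes without ZT12 replicate 2 (1574 at an unadjusted p under 0.05), 9 without ZT12 replicate 1, of which 7 were higher, 1 without ZT18 replicate 1 and 14 without ZT18 replicate 2. Dbp lost its call only without ZT12 replicate 2, whereas Nr1d1, Pecam1 and Gm42047 each lost it in every fit without a ZT6 or ZT12 library and in the fit without ZT18 replicate 1.

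Large differences leaned to the lower side. The mean log2 value differed by more than 1, or 2-fold, in 1367 genes (10.1%), of which 992 were lower and 375 higher at ZT18, although the median difference over all genes was only -0.02. The 992 lower genes were mostly weakly expressed, with a median level of 23.6 normalised counts against 374 for all genes tested. The 375 higher genes were also weakly expressed, with a median level of 56.7, so a low level was not particular to the lower side. In 36.7% of them the highest of the 8 values was that of ZT12 replicate 1, compared with 19.9% of all genes. The 992 genes were selected for a higher mean at ZT12, which favours a ZT12 library as the highest. The 2 shares therefore do not tell whether that library was unusual.

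The clearest decline was in the output arm and the REV-ERB arm of the clock. Dbp, the D-box activator, had 1593 and 1113 normalised counts at ZT12 and 89.7 and 88.5 at ZT18. The ZT18 libraries were almost equal and far below both ZT12 libraries. It fell by 3.89 ± 0.30 (SE) on the log2 scale, a 15.2-fold lower mean (limma adjusted p = 0.00425, n = 2 per time point). Dbp (ENSMUSG00000059824) lies at chr7:45705088-45710203 of GRCm38 and overlaps Sphk2 on the opposite strand; the strand setting of the counting is not stated, so reads in such overlaps cannot be assigned with certainty.

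Nr1d1, which encodes REV-ERB alpha, fell as well. Its values were 1685 and 1306 at ZT12 and 197 and 142 at ZT18, a fall of 3.15 ± 0.34 (SE) on the log2 scale (limma adjusted p = 0.042). Both ZT18 libraries lay far below both ZT12 libraries. Nr1d1 (ENSMUSG00000020889, chr11:98767932-98775333) overlaps Thra on the other strand. Its paralogue Nr1d2, REV-ERB beta, had 2630 and 1874 against 743 and 660 without overlap, a log2 difference of -1.66 ± 0.21 that did not pass (limma adjusted p = 0.0699). Rora was measured near the detection limit, with 29.0 and 15.0 against 10.3 and 6.4.

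Among the repressors of the loop, a part was lower at ZT18 while the remainder held its level or was higher. Ciart, a repressor of CLOCK-BMAL1, had 441 and 407 normalised counts at ZT12 and 35.9 and 60.3 at ZT18, or a log2 difference of -3.16 ± 0.43 (limma adjusted p = 0.0746). Per3 had 1784 and 1341 against 480 and 470 (log2 difference -1.70) and Per1 had 1570 and 1170 against 574 and 563 (-1.25), both with separate libraries and limma adjusted p-values of 0.246 and 0.381. The Per2 libraries overlapped: it had 2068 and 1693 at ZT12 and 1599 and 1923 at ZT18, a log2 difference of -0.09 ± 0.25. Cry2 likewise overlapped, at 936 and 925 against 1029 and 837. Whether Per2 differed from Per1 and Per3 in its step was not tested.

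Cry1 and Nfil3, in contrast, were higher at ZT18. Cry1, a cryptochrome repressor, had 419 and 481 normalised counts at ZT12 and 1137 and 1239 at ZT18, 2.64-fold more (log2 difference 1.40 ± 0.19, limma adjusted p = 0.0746). Nfil3, which opposes DBP at the D-box, had 17.8 and 26.5 at ZT12 and 144 and 228 at ZT18, an 8.38-fold difference (limma adjusted p = 0.0746). Both ZT18 libraries exceeded both ZT12 libraries for each of these genes, yet neither passed the threshold. Tef, a partner of Dbp, was lower without overlap, at 4001 and 3239 against 1830 and 1182 (log2 difference -1.29 ± 0.28, limma adjusted p = 0.391).

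Of the 4 activator genes, 2 had higher and 2 had lower means at ZT18, and none was called by limma, edgeR or DESeq2. Arntl had 301 and 436 normalised counts at ZT12 and 649 and 799 at ZT18, a 1.97-fold difference (limma adjusted p = 0.514). Npas2, the partner that can replace CLOCK, had 204 and 409 against 464 and 685 (limma adjusted p = 0.520). Neither of these genes had overlapping libraries. Arntl2, a BMAL1 paralogue, had 24.3 and 39.2 against 33.3 and 12.1 with overlap, and Clock itself stayed between 1666 and 1785 in all 4 libraries.

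**Figure D1:**
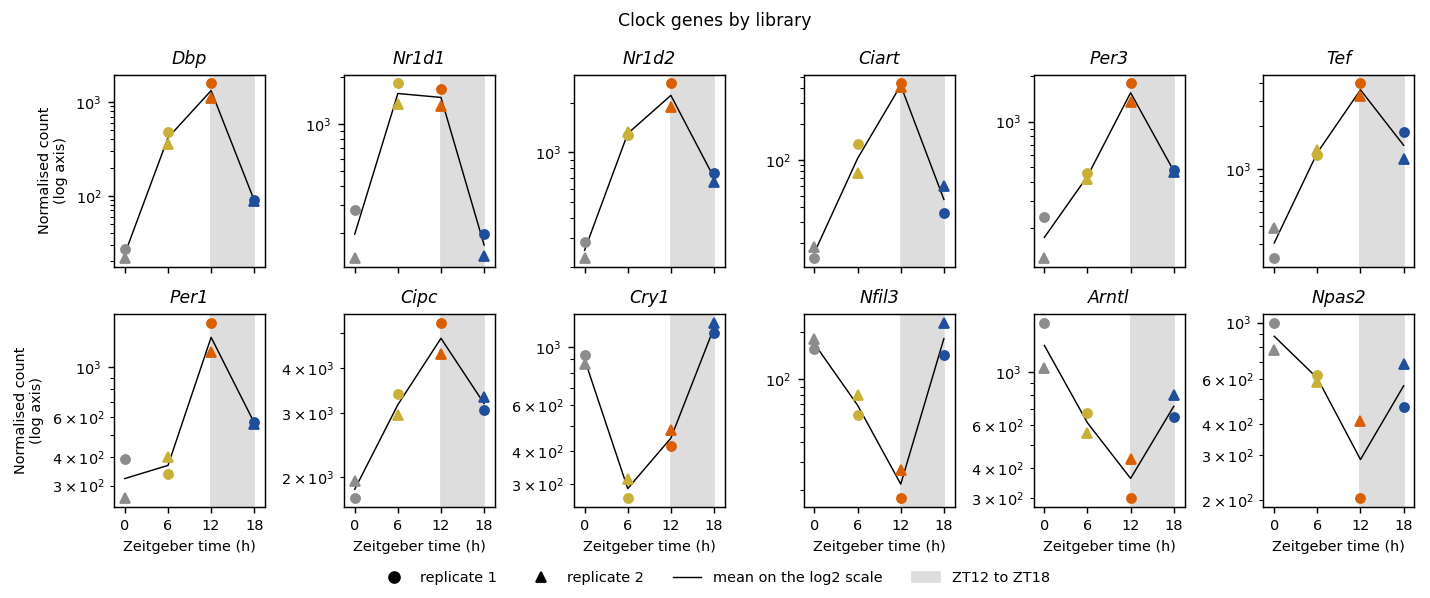
Normalised counts (log axis, scale differing between panels) of 12 clock genes in the 8 libraries against zeitgeber time in h; circles are replicate 1, triangles replicate 2, the line joins the means on the log2 scale, and the grey band spans ZT12 to ZT18. In all 12 panels the 2 points at ZT18 lie on 1 side of the 2 points at ZT12: below it for Dbp, Nr1d1, Nr1d2, Ciart, Per3, Tef, Per1 and Cipc, and above it for Cry1, Nfil3, Arntl and Npas2. Only clock genes without overlap are drawn, so this follows from the choice of panels. Other clock genes, among them Per2, Cry2 and Clock, overlapped, and 36.4% of all genes tested did not.

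Of 32 clock genes listed, 29 were tested, and limma called 2 of them, Dbp and Nr1d1, against 0.0296% of all genes. The edgeR test called Dbp, and DESeq2 also called Nr1d2, Ciart, Per3, Per1 and Tef on the lower side and Cry1 and Nfil3 on the higher side, among others. The list of activators (Arntl, Arntl2, Clock, Npas2) had a median log2 difference of 0.46, which was 0.19 without ZT12 replicate 1; that of the repressors was -0.39, that of the REV-ERB and ROR receptors was -1.46 and that of the PAR bZIP factors with Nfil3 was -1.29. The protein modifiers and outputs showed little: 5 of 10 were higher, 5 lower, and none had an unadjusted p under 0.05. Within that list, the casein kinase gene Csnk1d (2807 and 2927 against 2830 and 2941) was nearly level, whereas Usp2, a deubiquitinase gene under clock control, had 1516 and 914 against 649 and 826. Cipc, a CLOCK-interacting repressor, had 5318 and 4372 against 3061 and 3313 (log2 difference -0.60, limma adjusted p = 0.515).

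Promoter sequences were read for the clock genes to show which of them carry the perfect element of the loop. RefSeq start sites (GRCm38.p6) with 250 bases upstream were searched on both strands for the E-box CACGTG, the D-box TTATGTAA and the ROR element TAGGTCA, the element that REV-ERB and ROR share; none of the 3 contains another. Of the 29 clock genes tested, 21 were matched to a start site, and 5 of these held the E-box (Per1, Cry1, Ciart, Cipc and Tef), 2 the D-box (Per3 and Timeless) and 1 the ROR element (Nfil3). Over 27025 genes with a start site the shares of genes were 6.86%, 0.977% and 2.55%. Over 32851 promoter windows they were 6.02%, 0.819% and 2.23%. Of the E-box genes, Per1, Ciart, Tef and Cipc had lower means at ZT18 and Cry1 a higher one. Whether the element bears on the direction of the step was not tested. Dbp, Nr1d1 and Nr1d2 are not among the genes with a match, for want of an element or of a matched start site. Below are 100-base stretches for the genes with the smallest limma p for the step among those with a match. They are written 5′ to 3′ on the strand of the gene with the matching letters in capitals. In Nfil3 the capitals are the reverse complement of the element. They are chr3:95882265-95882364 (minus strand) for Ciart, chr11:69098763-69098862 (plus) for Per1, chr10:85185055-85185154 (minus) for Cry1, chr4:151044791-151044890 (minus) for Per3 and chr13:52981040-52981139 (minus) for Nfil3.
Ciart: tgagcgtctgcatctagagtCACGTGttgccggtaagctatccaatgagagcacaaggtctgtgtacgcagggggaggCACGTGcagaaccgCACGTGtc
Per1: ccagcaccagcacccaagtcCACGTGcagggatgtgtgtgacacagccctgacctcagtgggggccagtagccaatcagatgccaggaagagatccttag
Cry1: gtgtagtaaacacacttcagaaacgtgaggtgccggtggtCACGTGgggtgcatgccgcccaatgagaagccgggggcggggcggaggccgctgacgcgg
Per3: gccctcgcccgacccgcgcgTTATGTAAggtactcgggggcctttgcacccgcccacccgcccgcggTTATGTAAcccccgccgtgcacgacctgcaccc
Nfil3: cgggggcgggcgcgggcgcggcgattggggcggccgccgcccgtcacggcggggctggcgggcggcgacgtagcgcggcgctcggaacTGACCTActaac
Ciart thus holds 3 E-boxes, at 116, 58 and 44 bases upstream of the start site, and Per3 holds 2 D-boxes, at 205 and 158 bases. The E-box of Cry1 begins 60 bases upstream, that of Per1 166 bases upstream, and the element of Nfil3 12 bases upstream. Such matches are letters only, and binding was not measured in these libraries.

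To ask whether the early night differed from the early day, the step was set against that from ZT0 to ZT6, which uses the other 4 libraries. The 2 steps differed in 13 genes (0.0963% of those tested, limma adjusted p under 0.05), and 9 of the 13 are in the clock lists. The day step itself had 6 called genes (0.0444%). The difference was -7.95 ± 0.42 (SE) on the log2 scale for Dbp, whose log2 differences were 4.06 in the day step and -3.89 in the night step, and -6.14 ± 0.49 for Nr1d1. Nr1d2 (-4.02), Ciart (-5.72), Tef (-3.39) and Per3 (-3.03) also had a lower step at night than by day. The reverse was found for Cry1 (3.04) and Nfil3 (4.28). All 13 genes had opposite signs in the 2 steps, which their selection by the difference between these steps favours. Over all genes the steps were almost unrelated, with Pearson's r = -0.03 and Spearman's rho = -0.16 across 13503 genes, which are not independent replicates.

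**Figure D2:**
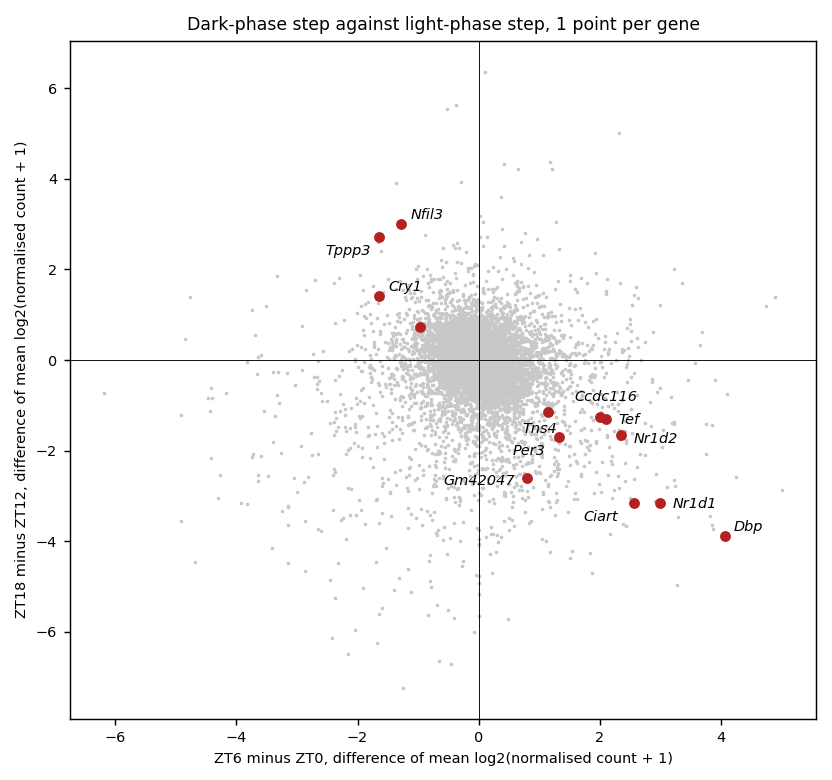
Difference of mean log2(normalised count + 1) between ZT18 and ZT12 (vertical axis) against that between ZT6 and ZT0 (horizontal axis), 1 grey point per gene; red points are the 13 genes whose steps differed at a limma adjusted p under 0.05. The 13 genes lie in the upper left and lower right quadrants, Dbp farthest out at -3.89 and 4.06, while over all genes r was -0.03. Selection by the difference between the steps favours such positions.

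The other genes of this comparison are less known as clock genes. Tppp3, a member of the tubulin polymerisation promoting protein family, had 478 and 800 normalised counts at ZT12 and 5483 and 2998 at ZT18, 6.64-fold more (log2 difference 2.71 ± 0.39, limma adjusted p = 0.0879 for the night step). Its difference between the steps was 4.35. Tns4, a tensin of focal adhesions, had 9143 and 7258 against 4258 and 3214, and Ccdc116 had 437 and 379 against 168 and 170. Both were lower at ZT18 without overlap, with differences between the steps of -2.28 and -3.27. In all 13 genes the libraries of ZT12 and ZT18 did not overlap, against 36.4% of all genes. The 13 were selected on these same values, which favours separate libraries. Gm42047, described below, had a difference between the steps of -3.39.

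The fit also asked whether the course turned at ZT12, that is, whether the step after ZT12 differed from the one before it, both of which use the ZT12 libraries. Dbp alone passed (0.00741% of the genes), with a change of slope of -5.56 ± 0.51 (limma adjusted p = 0.0221) after a log2 difference of 1.67 between ZT6 and ZT12. Its values of 482 and 361 at ZT6 lay between those of ZT18 and ZT12. Nr1d1 was already at 1830 and 1352 at ZT6, so its level was about the same at ZT6 and ZT12 and the fall was in the later step (change of slope -3.06, limma adjusted p = 0.462). Nfil3 had the opposite turn, 4.61 (limma adjusted p = 0.137).

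Gm42047 (ENSMUSG00000110631), a long intergenic RNA at chr8:121833247-121841178 with no role known here, fell from 1514 and 892 normalised counts to 206 and 178, 6.27-fold (limma adjusted p = 0.042). It lies inside Gm20388 on the same strand, so the counts of this pair are uncertain. At ZT0 and ZT6 it ranged from 1112 to 2719, so its level was low at ZT18 only among the 4 time points.

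Pecam1 (ENSMUSG00000020717, chr11:106654217-106750628), an adhesion molecule of endothelial cells, platelets and leukocytes, had 271 and 180 normalised counts at ZT12 and 24.8 and 26.5 at ZT18. It fell by 3.06 ± 0.36 (SE) on the log2 scale, 8.78-fold (limma adjusted p = 0.042). At ZT0 and ZT6 it stayed between 90.4 and 115, so both the ZT12 libraries were above and both the ZT18 libraries below all others. Of 14 endothelial markers, 9 were in the table and 6 were tested, Pecam1 among them. All 6 were lower, with a median log2 difference of -2.41, whereas 48.0% of all genes were higher. Only 1 of the 6, Pecam1 itself, had an unadjusted limma p under 0.05. The summed level of the 9, which includes Pecam1, was 644 and 312 at ZT12 and 139 and 85.3 at ZT18. Cdh5, a defining marker, was at 38.4 and 0 at ZT12 and at 0 and 0.8 at ZT18, and Vwf had 101 and 65.7 against 74.3 and 20.9. In tissue of mixed cells, fewer cells of a type and less RNA per cell cannot be told apart, and the part of endothelial cells in the Pecam1 result was not tested.

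Cldn4, a tight junction claudin, was among the further genes with the smallest p on the higher side, with 702 and 912 normalised counts at ZT12 and 1858 and 1634 at ZT18 (log2 difference 1.12 ± 0.19, limma adjusted p = 0.246), and DESeq2 called it. Its relative Cldn8 had 717 and 796 against 1799 and 1404, and of 16 tight junction genes 11 were higher, with a median of 0.15. At ZT0 and ZT6 Cldn4 lay between 1306 and 1923, so its values at ZT12 were the low ones. Ypel2 had 252 and 289 against 678 and 559. Tpbgl was at 6.6 and 6.9 at ZT12 and 145 and 163 at ZT18, 22.9-fold more (limma adjusted p = 0.279), and did not exceed 16.8 in the day libraries; it overlaps Gm10605 on the other strand. Gm21887 and Gm47283, near-identical copies on the sex chromosomes whose reads cannot be told apart with certainty, were 7.30-fold and 6.08-fold higher. Gm21887 had 216 and 213 against 2231 and 905, and Gm47283 had 356 and 458 against 3746 and 1202. At ZT0 and ZT6 Gm21887 lay between 1446 and 2973 and Gm47283 between 2231 and 3769. Their values at ZT12 were thus the low ones too. On the lower side, the Wnt ligand gene Wnt8b had 46.8 and 93.4 against 4.3 and 4.0 (limma adjusted p = 0.338).

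Interferon-stimulated genes had higher mean values at ZT18 throughout the list. These genes answer type I and type III interferons and include sensors and effectors against viruses. All 23 tested were higher at ZT18, against 48.0% of all genes, with a median log2 difference of 1.15. In 19 the libraries did not overlap, against 17.8% of all genes on that side. An unadjusted p under 0.05 was found in 15, against 4.32%, but none passed the adjusted test by limma or edgeR. DESeq2 called 4 of them, Bst2, Oas2, Oasl2 and Ifi44, against 0.37% of all genes on that side. Bst2, which encodes tetherin, had 183 and 312 normalised counts at ZT12 and 1058 and 816 at ZT18. Oas2, an oligoadenylate synthetase gene, had 73.0 and 310 against 1308 and 869, and Irf7, the regulator of the interferon response, had 1728 and 4932 against 9459 and 9989. The spread within ZT12 was wide: by its median over the list, replicate 1 stood at -0.74 on the log2 scale from the mean of the 8 libraries, against 0.05 for replicate 2. Without ZT12 replicate 1 the median difference was 0.63, with 22 of 23 higher and 5 with an unadjusted p under 0.05; without ZT18 replicate 1 it was 0.69, with 23 higher and 7.

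DNA replication genes were higher at ZT18 and mitotic genes were not. Of 46 S phase genes tested, 43 were higher, with a median log2 difference of 0.52. Of the higher genes, 34 did not overlap, against 17.8% of all genes on that side. An unadjusted p under 0.05 was found in 16 of them, against 4.32%. Uhrf1, which carries DNA methylation through replication, had 395 and 468 normalised counts at ZT12 and 732 and 752 at ZT18; the helicase subunit gene Mcm3 had 288 and 345 against 590 and 538, and the licensing factor gene Cdt1 had 213 and 232 against 439 and 362. Rpa3, the smallest subunit of replication protein A, was 1 of the 3 lower genes, with 225 and 308 against 138 and 174, and in the other two, Rrm1 and Ccne2, named after their values were seen, the libraries overlapped. Among 42 G2/M genes, 14 were higher and 28 lower, with a median of -0.06 (between -0.13 and -0.07 when a ZT12 or ZT18 library was left out); Ccnb2, a mitotic cyclin, had 351 and 326 against 206 and 224 and Prc1, a spindle midzone gene, 216 and 186 against 111 and 134. Leaving out each library in turn kept the S phase median between 0.43 and 0.65, and the count with an unadjusted p under 0.05 between 5, without ZT12 replicate 1, and 16. No gene of these 2 lists passed the adjusted test by limma, edgeR or DESeq2.

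Chaperone genes of the heat shock response were higher at ZT18, and the cold-induced Rbm3 was lower. In 18 of 22 genes the ZT18 mean was higher, with a median log2 difference of 0.47. Of these, 11 had an unadjusted p under 0.05, against 4.32% of all genes on that side. None was called by limma or edgeR, whereas DESeq2 called Hsp90ab1, Hsp90aa1 and Hspa8 as higher and Rbm3 as lower. Hsp90aa1, the inducible cytosolic HSP90, had 2543 and 3213 normalised counts at ZT12 and 6200 and 4865 at ZT18. Hsph1, a co-chaperone of HSP70, had 449 and 579 against 916 and 1138, and Hspa8, the constitutive HSP70, 16019 and 14096 against 31837 and 21465. Rbm3, an RNA-binding protein induced by mild cold, had 1755 and 1577 against 971 and 963, so that its ZT18 libraries were both below ZT12 (log2 difference -0.78, limma adjusted p = 0.421). Cirbp, the other cold-induced RNA-binding protein, overlapped, at 462 and 483 against 661 and 331.

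Stress-linked lists had smaller medians. Of 17 immediate early genes, 14 were higher with a median of 0.32, among them Atf3 (597 and 1240 against 2315 and 1880), Fosb (83.3 and 115 against 343 and 278) and Jun (1463 and 1936 against 2973 and 2608). Without ZT12 replicate 1 this median was 0.05, with 9 of 17 higher; leaving out ZT18 replicate 1 gave 0.17, and leaving out ZT12 replicate 2 gave 0.50. Of 27 genes of the unfolded protein and integrated stress responses, 18 were higher with a median of 0.26, led by Creld2 and Manf, both made by the stressed endoplasmic reticulum (478 and 733 against 1614 and 975 for Creld2), and the median was 0.01 when ZT18 replicate 2 was left out and 0.08 when ZT12 replicate 2 was. Targets and receptors of corticosteroids were split, with 4 of 15 higher and a median of -0.13, which became -0.07 and -0.25 when ZT12 replicates 1 and 2, respectively, were left out: Sgk1, a kinase gene induced by aldosterone and glucocorticoids, had 4265 and 6942 against 7944 and 9421, and Tsc22d3 (GILZ) 918 and 1491 against 2412 and 1705, whereas the mineralocorticoid receptor gene Nr3c2 had 3674 and 3221 against 2193 and 2207. None of these genes was called by limma or edgeR, and DESeq2 called Nr3c2.

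**Figure D3:**
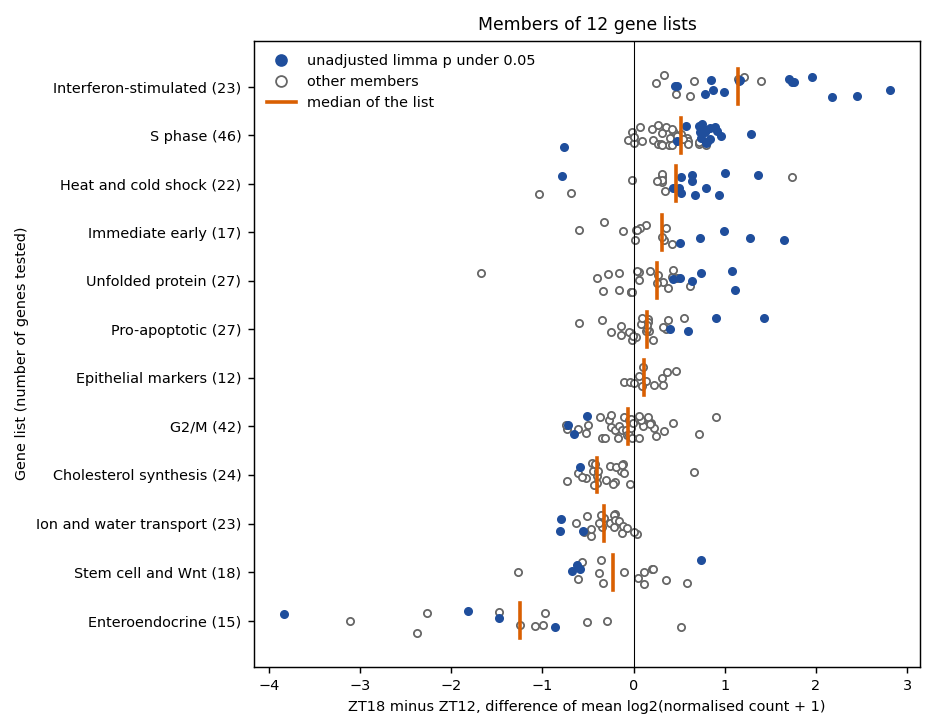
Difference of mean log2(normalised count + 1) between ZT18 and ZT12 for each member of 12 gene lists, 1 point per gene with the number tested in brackets; filled points have an unadjusted limma p under 0.05 and the orange bars are medians. The interferon list lies wholly to the right of 0 with a median of 1.15, the S phase list has 43 of 46 points to the right, and the enteroendocrine list has 14 of 15 to the left with a median of -1.25.

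The study reports, from a gene set score, that apoptosis transcripts followed a daily rhythm with the lower level at ZT12. It also reports a similar pattern for Bax and p53 and a rhythm of apoptosis genes in public small intestine data. Its cleaved caspase 3 staining was highest at ZT0 and lowest at ZT12. The staining measures protein and was not examined here. The apoptosis lists used here, which are not that gene set, had small medians in this step. Of 27 pro-apoptotic genes, 18 were higher with a median of 0.15. Of the higher genes, 8 did not overlap, against 17.8% of all genes on that side. An unadjusted p under 0.05 was found in 4 of them, against 4.32%. Bok, a BAX-like effector gene, had 180 and 252 normalised counts at ZT12 and 752 and 445 at ZT18 (log2 difference 1.44 ± 0.31, limma adjusted p = 0.391). DESeq2 called Bok, and limma and edgeR called no gene of the 3 lists here. Bcl2l11, which encodes BIM, had 316 and 315 against 534 and 429. Among 11 anti-apoptotic genes the median was -0.16, with Bcl2l2 at 1342 and 1407 against 949 and 1116. Of 22 p53 targets, 12 were higher, with a median of 0.09. These medians moved with single libraries: without ZT12 replicate 1 that of the pro-apoptotic genes was 0.04, that of the anti-apoptotic genes -0.05 and that of the p53 targets 0.17. The anti-apoptotic median was -0.03 when ZT18 replicate 1 was left out and -0.28 when ZT12 replicate 2 was, and that of the p53 targets turned to -0.06 without ZT18 replicate 2.

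Enteroendocrine genes were lower at ZT18 in 14 of 15 cases, with a median log2 difference of -1.25. Of the lower genes, 6 did not overlap, against 18.7% of all genes on that side. An unadjusted p under 0.05 was found in 4 of them, against 4.71%. DESeq2 called Insl5 and Cpe, limma and edgeR none. These cells make gut hormones and secretory granules. Insl5, a hormone of colonic L cells, had 552 and 1081 normalised counts at ZT12 and 367 and 208 at ZT18, Pyy 653 and 1415 against 592 and 475, and the prohormone enzyme Cpe 433 and 160 against 65.8 and 83.6. Chgb, a granule protein, overlapped, at 3136 and 908 against 248 and 1474. The size of the shift rested largely on ZT18 replicate 1, in which 5 of the 16 genes in the table were at 0: without it the median was -0.33, and without ZT18 replicate 2 it was -1.99.

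Most cholesterol synthesis and ion transport genes had lower means at ZT18. Of 24 cholesterol synthesis genes, 23 were lower, with a median of -0.40. Of the lower genes, 12 did not overlap, against 18.7% of all genes on that side. Only 1 of the 24 (4.17%) had an unadjusted p under 0.05, against 4.71% of all genes on that side. Stard4, which carries cholesterol within cells, had 4798 and 3625 normalised counts at ZT12 and 2600 and 2971 at ZT18, and Hsd17b7, an enzyme of the later steps, 655 and 545 against 458 and 415. Leaving out ZT12 replicate 1 brought the median to -0.17, and leaving out ZT18 replicate 2 to -0.18. For ion and water transport, 21 of 23 were lower (median -0.32), including the water channel Aqp4, at 7768 and 8050 against 5577 and 3682. That median was -0.18 when either replicate 1 was left out, and then 5 (ZT12) or 7 (ZT18) of 23 were higher in place of 2. Among nutrient transporters the directions were mixed, with 10 of 21 higher: the phosphate transporter Slc34a2 had 141 and 515 against 836 and 1046, while the amino acid transporters Slc6a20a (109 and 84.2 against 10.3 and 45.8) and Slc6a14 (22540 and 16197 against 8937 and 13472) were lower. Goblet cell genes (11 of 16 higher, median 0.10), colonocyte genes (7 of 14, -0.10) and epithelial markers (10 of 12, 0.12) had medians near 0, which turned sign without ZT12 replicate 2 for the goblet list (-0.04), without either replicate 2 for the colonocyte list (0.03 and 0.14) and without ZT18 replicate 1 for the epithelial list (-0.04). Stem cell and Wnt genes had a median of -0.22, with Rnf43, a Wnt inhibitor of stem cells, at 977 and 853 against 577 and 563 and Myc at 299 and 286 against 541 and 439. The median of that list was -0.04 when ZT12 replicate 1 was left out, and -0.05 and -0.36 when ZT18 replicates 1 and 2 were, respectively.

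The milk protein list followed a single library, and the size of the stromal and mitochondrial differences moved with single libraries. Myh11, the smooth muscle myosin, had 1662 and 80.7 normalised counts at ZT12 and 1.7 and 4.0 at ZT18. All 8 smooth muscle genes tested were lower, with a median of -5.00. An unadjusted p under 0.05 was found in 6, against 4.71% of all genes on that side. The list stood 5.86 log2 units above its mean in ZT12 replicate 1 and 2.13 in replicate 2. Without ZT12 replicate 1 the median of the list was -3.01, with 7 of 8 genes lower. Its summed level was 5593 and 1325 at ZT12 and 885 and 1200 at ZT18. The fibroblast list (9 of 10 lower) had a median of -3.76, which leaving out ZT12 replicate 1 brought to -1.71 and leaving out ZT12 replicate 2 to -5.80; its summed level was 3239 and 371 against 288 and 331, and Dcn, at 426 and 51.9 against 0 and 0, was at least 96.0-fold lower when 3 reads per library are taken as the limit of a 0. Milk protein genes were seen in ZT18 replicate 1, where their sum was 4436 normalised counts, against 10.5 in ZT18 replicate 2 and 4.7 and 0 at ZT12; without that library the median of the list was 0. The 12 mitochondrially encoded genes were all higher, with a median of 1.23. Without ZT18 replicate 1 that median was 0.40 with 11 of 12 higher, and it was 2.02 when replicate 2 of that time was left out. Among the 12 genes, mt-Co2 had 54.3 and 49.6 against 239 and 195, a gene whose reads may be shared with near-identical nuclear copies. Cytosolic ribosomal protein genes were higher in 69 of 79 cases with a median of 0.27, yet none was free of overlap on that side, and the median was -0.10 without ZT18 replicate 1 and -0.01 when ZT12 replicate 1 was left out, but 0.52 and 0.62 when replicate 2 of ZT12 and of ZT18 was.

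**Figure D4:**
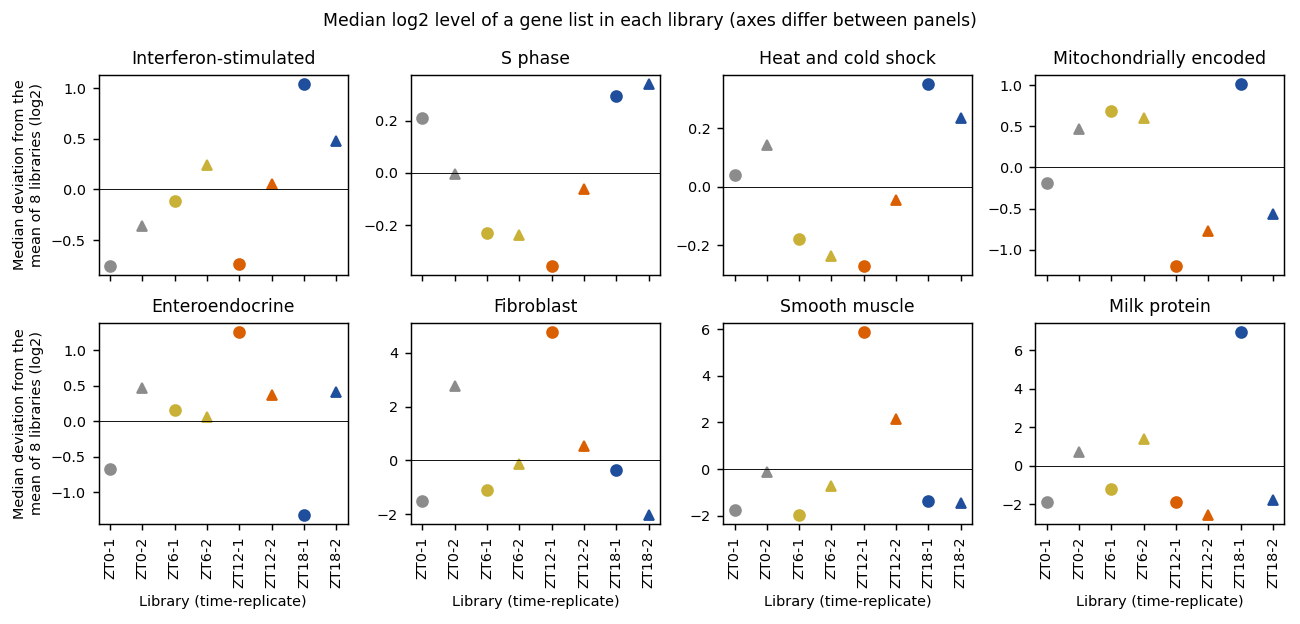
Median deviation of 8 gene lists from the mean of the 8 libraries, in log2 units, for each library in order of time; colours mark the time points, circles replicate 1 and triangles replicate 2, and the vertical axes differ between panels. Both ZT18 libraries lie above both ZT12 libraries for the interferon, S phase and heat and cold shock lists. For smooth muscle ZT12 replicate 1 stands at 5.86 and ZT12 replicate 2 at 2.13, and for milk proteins ZT18 replicate 1 alone stands at 6.92.

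Immune cell markers gave no common direction. All 7 T cell genes tested were higher, with a median of 0.51 and summed levels of 225 and 277 at ZT12 and 296 and 501 at ZT18, and none had an unadjusted p under 0.05; leaving out ZT18 replicate 2 gave a median of 0.18, leaving out ZT12 replicate 2 gave 0.78, and leaving out ZT18 replicate 1 gave 1.14. Myeloid markers were lower in 8 of 9 cases, with a summed level of 603 and 133 against 98.3 and 79.6, and C1qb was at 44.9 and 9.2 against 0 and 0. B and plasma cell markers summed to 923 and 122 against 311 and 130, so their libraries overlapped. How far these cells entered the interferon and other results was not tested.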

How the data were processed

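The authors sequenced the libraries, aligned the reads with STAR to GRCm38 (mm10 is also named in the submitters' processing notes) and used DESeq2; the read counter, gene annotation and strand setting are not given in the sources used here. They deposited 1 table with a signal per gene and library, the read count divided by a size factor, and the mean of these values. It also holds the authors' own comparison: the deposited log2 fold change, its error and test score, and p-values, none of which was used. Within 0.01, 100% of the values in every library equalled a whole number of reads, so whole reads were recovered. Totals ranged from 14722342 to 25159440 reads, and 3 reads, the limit that a count of 0 allows, equal 2.41 to 3.46 normalised counts in the 4 libraries of the step; such limits cover counting error only, since reads are not independent molecules.

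Genes with a mean of at least 10 were fitted with limma 3.58.1 (R 4.3.3; mean-variance trend) on log2(normalised count + 1), which understates changes of low genes, with 1 mean per time point over all 8 libraries and Benjamini-Hochberg adjustment at 0.05. Contrasts were ZT18 against ZT12, its difference from the ZT0 to ZT6 step, and the turn at ZT12. On simulated data for ZT18 against ZT12 with 13503 genes, the fit recovered 76% of genes changed by log2 1 and 100% of those changed by log2 2, and 5 unchanged genes were called as well. The simulation used an assumed spread between libraries, not one estimated from these data, and changed well-expressed genes only. These shares therefore do not tell how many real changes the fit missed here. edgeR 4.0.16 and DESeq2 1.42.0 on the recovered reads, other scalings, pseudocounts and filters, and leaving out each library were the alternatives. Named genes were all clock genes, all called genes, the 10 genes with the smallest p in each direction among those without overlap, 2 to 4 leading members of each list, and the 10 leading genes of the other contrasts. A few genes that the rule names are not reported here. Members, the 46 gene lists and tests were chosen with earlier results of these data known. Coordinates are those of GENCODE M21 (14244 of 14247 identifiers matched).

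Replicate numbers were not taken to pair the libraries. For ZT12 and ZT18 the deviations from the group means correlated at -0.26 over genes. Over all pairs of time points this value ran from -0.29 (ZT0 with ZT12) to 0.22 (ZT0 with ZT18). Such values cannot exclude a preparation shared by number, since single libraries also differed in their mix of cells.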

Additional observations from a re-analysis of the deposited data

Results flagged for a closer look

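In 13 genes the step from ZT12 to ZT18 differed from that from ZT0 to ZT6 by the interaction term of the limma fit at an adjusted p under 0.05. The difference on the log2 scale, night step minus day step, was -7.95 for Dbp, -6.14 for Nr1d1, -5.72 for Ciart and -4.02 for Nr1d2, with limma adjusted p-values of 0.000164, 0.00198, 0.0134 and 0.00192. It was -3.39 for Tef, -3.03 for Per3, -3.27 for Ccdc116, -3.39 for Gm42047 and -2.28 for Tns4. On the positive side it was 4.35 for Tppp3, 4.28 for Nfil3 and 3.04 for Cry1. The weakest limma adjusted p of the 13 was 0.0458, that of Per3.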

How the results depend on the processing

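The count of called genes for ZT18 against ZT12 was 4. It was 1 with a pseudocount of 0.1, 2 with a mean of at least 50, 2 with no mean-variance trend, 1 with only the time points compared, 1 by edgeR and 50 higher and 51 lower by DESeq2 (101 in all, with all 4 genes among them). Leaving out 1 library gave 0 (without ZT12 replicate 2) to 14 (without ZT18 replicate 2); without ZT12 replicate 1 there were 9, of which 7 were higher. In the latter fits the lone library is assumed to vary like the other groups. Dbp kept its direction in all 22 settings and missed the threshold without ZT12 replicate 2 (limma adjusted p = 0.0778); Nr1d1, Pecam1 and Gm42047 lost their call in many settings. The count of 13 for the difference of the steps was 1 with no trend, 7 by edgeR, 106 by DESeq2 and 3 to 16 without 1 library. The count of 1 for the turn was 0 with quantile normalisation, 0 with no trend, 3 with only the time points compared, 81 by DESeq2 and 0 to 8 without 1 library. The cause of these differences was not tested. With the replicate number as a block the counts were 3, 14 and 1, although the numbers were not taken to pair the libraries. With the ZT18 numbers crossed, an alternative chosen after seeing the data, 5 genes were called for the step, 3 lower and 2 higher (Gm21887 and Bst2, both with a limma adjusted p of 0.0374), and Pecam1 missed the threshold (0.0588), as it did with the uncrossed block (0.0726). The smooth muscle median was -6.90 with a pseudocount of 0.1 and -7.23 to -3.01 without 1 library, and the interferon median ranged from 0.63 (without ZT12 replicate 1) to 1.59 without 1 library.

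Of 920 values of 42 named genes under the alternatives, 15 changed sign, in 8 genes of which none was called; with all libraries Arntl2 was at -0.59 and Tipin at 0.34. Without 1 library, Bhlhe40 ranged from -0.413 to 0.0572, Arntl2 from -1.29 to 0.105, Tipin from -0.0786 to 0.761, Por from -0.461 to 0.147, Per2 from -0.238 to 0.0509, Clock from -0.0845 to 0.0142, Csnk1d from -0.0210 to 0.0395 and Cry2 from -0.152 to 0.145. Csnk1d was also -0.0462 when scaled on reads outside the mitochondrial genome, and Cry2 was 0.00493 with TMM, 0.0115 by edgeR and 0.00387 by DESeq2. Each time point had 2 libraries. Depth limits values at or near 0, where 3 reads equal 2.41 to 3.46 normalised counts.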

Other observations

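Other gene groups showed smaller or uneven differences between ZT12 and ZT18, and limma and edgeR called none of the genes named here; DESeq2 called Eno1. Eno1, a glycolytic enzyme, had 10398 and 10677 normalised counts at ZT12 and 23233 and 14815 at ZT18, and 12 of 17 glycolysis genes were higher with a median log2 difference of 0.30, which was 0.11 when ZT12 replicate 1 was left out and 0.16 when ZT18 replicate 1 was. Acly, which supplies acetyl-CoA for lipid synthesis, had 6378 and 5590 against 3979 and 3297, and 9 of 13 fatty acid synthesis genes were lower. Fabp2, a fatty acid carrier of enterocytes, had 3786 and 4409 against 7109 and 7669. The drug exporter gene Abcc2 had 144 and 196 against 0 and 41.0. Nuclear genes of the respiratory chain had a median of 0.04 over 78 genes, which ranged from -0.13 to 0.16 without 1 library, while Ndufb6 had 321 and 346 against 222 and 205.

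The antimicrobial lectin gene Reg3b varied more between libraries than between the 2 times, with 3737 and 605 at ZT12 and 0 and 2319 at ZT18. Spdef, a goblet cell transcription factor, had 1533 and 1365 against 2039 and 2859.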
